A study of Mus musculus with 4 samples.

Results

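Scg2, Vgf and Pcsk2 are 3 of the 383 genes of an imaging panel that was read out in coronal mouse brain slices containing the striatum on both sides, and they were taken by gene name from the count table of each section. They encode proteins of the dense-core secretory granule, the vesicle in which neurons store neuropeptides. Scg2 encodes secretogranin II, an acidic granule protein that is cut into peptides such as secretoneurin. Vgf encodes a granule protein that is also cut into several peptides and is known as a gene induced by growth factors and neuronal activity. Pcsk2 encodes prohormone convertase 2, the protease that cuts many peptide precursors, among them proenkephalin, inside the granule. As background, spiny projection neurons make up most striatal neurons and carry either the Drd1 or the Drd2 dopamine receptor, and striatal interneurons that make somatostatin and neuropeptide Y are a classical peptide-releasing cell.

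The samples were 2 sections labelled Young, from mice of 2 months, and 2 sections labelled Aged, from mice of 18 months. No other treatment or genotype is named in the labels, and the study's methods give wild-type C57BL/6NTac mice. Transcripts were counted as spots in each segmented cell by multiplexed error-robust fluorescence in situ hybridization (MERFISH). Between 68011 and 74624 cells per section were kept, 281824 in all, with 18765491 (Aged 1) to 36035355 (Young 1) transcripts and with the lowest median per cell, 215 transcripts, in Aged 1. Levels below are transcripts of a gene per 10000 panel transcripts of the same cells, so a gene is read against the rest of the panel and not per cell. Aged 1 was the shallowest section, and the Young 1 section held few cells of the lateral cortex.

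Cell classes were rebuilt by clustering without the 3 genes, and are named from markers or from their leading genes. The neuron-like cells comprised 46695 spiny neuron-like cells, of which 23546 held more Drd1 than Drd2 transcripts (Drd1 side) and 19726 more Drd2 (Drd2 side). There were 16759 GABA neuron-like cells, 1416 Sst-rich GABA neuron-like cells and 42048 cells poor in the GABA genes Gad2 and Slc32a1, here called GABA-poor, in clusters led by Cxcl12, Rorb or Ptgs2. Other clusters are called by the genes that lead them (Ano1-rich GABA and Oprm1-rich GABA). Cells with a large share of transcripts from markers of another class were left out as mixed (24.0% of cells). Other genes of the panel that vary together with the 3 did enter the clustering, so differences between classes describe these classes and are not independent of how they were formed.

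In the GRCm38 build with GENCODE M21, Scg2 lies on the minus strand at chr1:79434669-79440120, Vgf on the plus strand at chr5:137026392-137033351 and Pcsk2 on the plus strand at chr2:143546156-143816285. RefSeq promoter sequence from 250 bases before to 50 bases after the gene start was at hand for Scg2 and Pcsk2. It is shown because the cyclic AMP response element, the letters TGACGTCA, is the best-known promoter element of activity-regulated granule genes. Scg2 holds these letters 68 bases before its RefSeq start (chr1, base 79440026), which is 26 bases after the GENCODE start. Pcsk2 does not hold the full letters, but holds 1 copy of the shorter TGACG, read on the other strand as CGTCA, 34 bases before its RefSeq start (chr2, base 143546133) and 57 bases before the GENCODE start. The window of Scg2 (GRCm38.p6, minus strand, chr1:79440076-79440105) and that of Pcsk2 (plus strand, chr2:143546087-143546115) are printed 5′ to 3′ with the matched letters in capitals.
Scg2: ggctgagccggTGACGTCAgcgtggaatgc
Pcsk2: ctggcgggcgcgCGTCAcccgggctggcg
Searched on both strands, TGACGTCA, which reads the same on both, was present in 588 of 32851 mouse promoters of the table (1.79%), and TGACG was present in 6837 (20.8%); every TGACGTCA also holds the shorter letters. A match is a description of these letters and says nothing about binding.

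Scg2 was a neuron-enriched transcript with its highest levels in GABA neuron-like cells. In the Sst-rich GABA cells it stood at 208 in Young 1, 165 in Young 2, 178 in Aged 1 and 179 in Aged 2. In the other GABA cells it stood at 171, 135, 128 and 137 in the same order. Every section had the higher level in the Sst-rich cells (log2 difference 0.36, SE 0.05, edgeR adjusted p = 2.96e-06), in a comparison that called 49.6% of the 383 genes. This pooled excess depended on position. Inside the striatal outline the Sst-rich cells had 376, 326, 342 and 351 and the other GABA cells 258, 219.9, 227 and 244. Outside it, the Sst-rich cells were lower in Young 1 (154 against 159) and Young 2 (122 against 127). They were higher there in Aged 1 (122 against 114) and Aged 2 (136 against 127). The Oprm1-rich GABA cells, at 193, 154, 179.9 and 197, could not be told from the Sst-rich cells (log2 difference 0.01, 95% interval -0.13 to 0.15, edgeR adjusted p = 0.865).

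Spiny neuron-like cells came next in the order of Scg2. The Drd1 side had 99.8, 79.2, 104 and 108 and the Drd2 side 79.4, 58.1, 80.0 and 79.6. The Drd1 side was higher in 4 of 4 sections (log2 difference 0.40, SE 0.02, edgeR adjusted p = 1.99e-07), in a comparison that called 66.1% of the 383 genes. Ano1-rich GABA cells, at 57.1 to 93.2, overlapped the Drd2 side (log2 difference 0.03, adjusted p = 0.827). The lowest neuron-like level was that of the Rorb-rich GABA-poor cells, at 33.0 to 35.6, below the Ptgs2-rich cells at 45.1 to 56 in every section (log2 difference 0.53, edgeR adjusted p = 0.000147). Cxcl12-rich and Ptgs2-rich cells stood next to each other with a difference that did not pass the test (log2 difference 0.07, 95% interval -0.01 to 0.16).

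In glial and vascular cells Scg2 lay between 3.73 and 9.50, which was 5.61% to 9.44% of the neuron-like level by class. Among the 16 neuron-wide genes of the panel the median of the same share was 10.1% (oligodendrocytes) to 23.0% (oligodendrocyte precursors). Several of these genes, such as Snhg11 and Meg3, were also neuron markers by which mixed cells were left out, which lowers their glial share. Scg2, Vgf and Pcsk2 were not among those markers. In oligodendrocytes Sez6l2 (407%) and Ank3 (135%) of this list were above the neuron-like level. The part of signal from neighbouring cells was not tested.

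Pcsk2 ran in another order. Its highest levels were in the GABA-poor cells, at 179 in Young 1, 145 in Young 2, 135 in Aged 1 and 150.1 in Aged 2. Spiny neuron-like cells had 73.4, 57.1, 68.0 and 66.2. GABA neuron-like cells had 34.9, 29.8, 34.0 and 32.8. Each section had this order, and no test between these 3 groups is given. Differences between classes were common on this panel. Over the pairs of neighbouring classes in the order of Pcsk2, 66.8% of gene tests were called. By the mean over sections, the lowest Pcsk2 of all neuron classes was that of the Sst-rich GABA cells, at 26.8 to 35.6. Their difference from the other GABA cells did not pass the test (log2 difference -0.14, SE 0.06, edgeR adjusted p = 0.0626). In Young 1 the Sst-rich cells had the higher level (35.6 against 34.9).

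Within the GABA-poor cells, the Ptgs2-rich and Cxcl12-rich clusters did not differ beyond their spread in Pcsk2 (log2 difference 0.07, 95% interval -0.01 to 0.15, edgeR adjusted p = 0.101), and both lay above the Rorb-rich cluster. The Drd1 side of the spiny class exceeded the Drd2 side by a log2 difference of 0.10 (SE 0.02, higher in 4 of 4 sections, edgeR adjusted p = 0.000962). Over the means of 9 neuron classes, the log2 levels of Scg2 and Pcsk2 had a Pearson r of -0.85, a description over classes that share sections.

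Pcsk2 also had a glial exception. Oligodendrocyte precursors, the dividing cells of the oligodendrocyte lineage, held 28.9, 23.9, 28.1 and 26.3, against 4.68 to 8.32 in the other glial and vascular classes. The level was 27.8% of that of all neuron-like cells and lay above astrocytes in every section (log2 difference 2.09, SE 0.10, edgeR adjusted p = 7.01e-09), where 69.7% of 379 genes were called. The neuron-wide genes, several of which served to leave out mixed cells, were also higher in these cells than in other glia. Their median was 23.0% of the neuron-like level against 16.0% in astrocytes. Scg2 did not pass the test between the same classes (log2 difference 0.22, adjusted p = 0.123), nor did Vgf (log2 difference -0.11, adjusted p = 0.675). With mixed cells kept, Scg2 was higher in the precursors (log2 difference 0.73, edgeR adjusted p = 6.28e-05), and Vgf turned, with astrocytes minus precursors at -0.43 (edgeR adjusted p = 0.00633).

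Vgf was sparse. Over all neuron-like cells it stood at 5.21 in Young 1, 5.0 in Young 2, 2.74 in Aged 1 and 5.20 in Aged 2, and the low value of Aged 1 recurred in each neuron class. The 10 lowest genes of the panel averaged 0.306, 0.278, 0.272 and 0.282, so Vgf was 10.1 times this floor in Aged 1 and 17.0 to 18.4 times in the other sections. Glial and vascular levels, at 15.3% to 39.4% of the neuron-like level, were a larger share than for Scg2.

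The highest Vgf level was in Sst-rich GABA cells, at 14.3, 13.3, 6.66 and 14.5, from 399, 268, 64 and 258 transcripts. The other GABA cells had 5.56, 5.16, 2.61 and 5.20. The Sst-rich cells were higher in 4 of 4 sections (log2 difference 1.39, SE 0.08, edgeR adjusted p = 2.94e-11). Ano1-rich GABA cells (5.16 to 11.5) lay above the Oprm1-rich GABA cells in every section (log2 difference 0.73, SE 0.11, edgeR adjusted p = 7.69e-05). From the Oprm1-rich GABA cells down to the Drd1 side of the spiny class no neighbours differed in Vgf, while the Drd1 side exceeded the Drd2 side (log2 difference 0.31, SE 0.04, 4 of 4 sections, edgeR adjusted p = 7.99e-05).

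**Figure D1:**
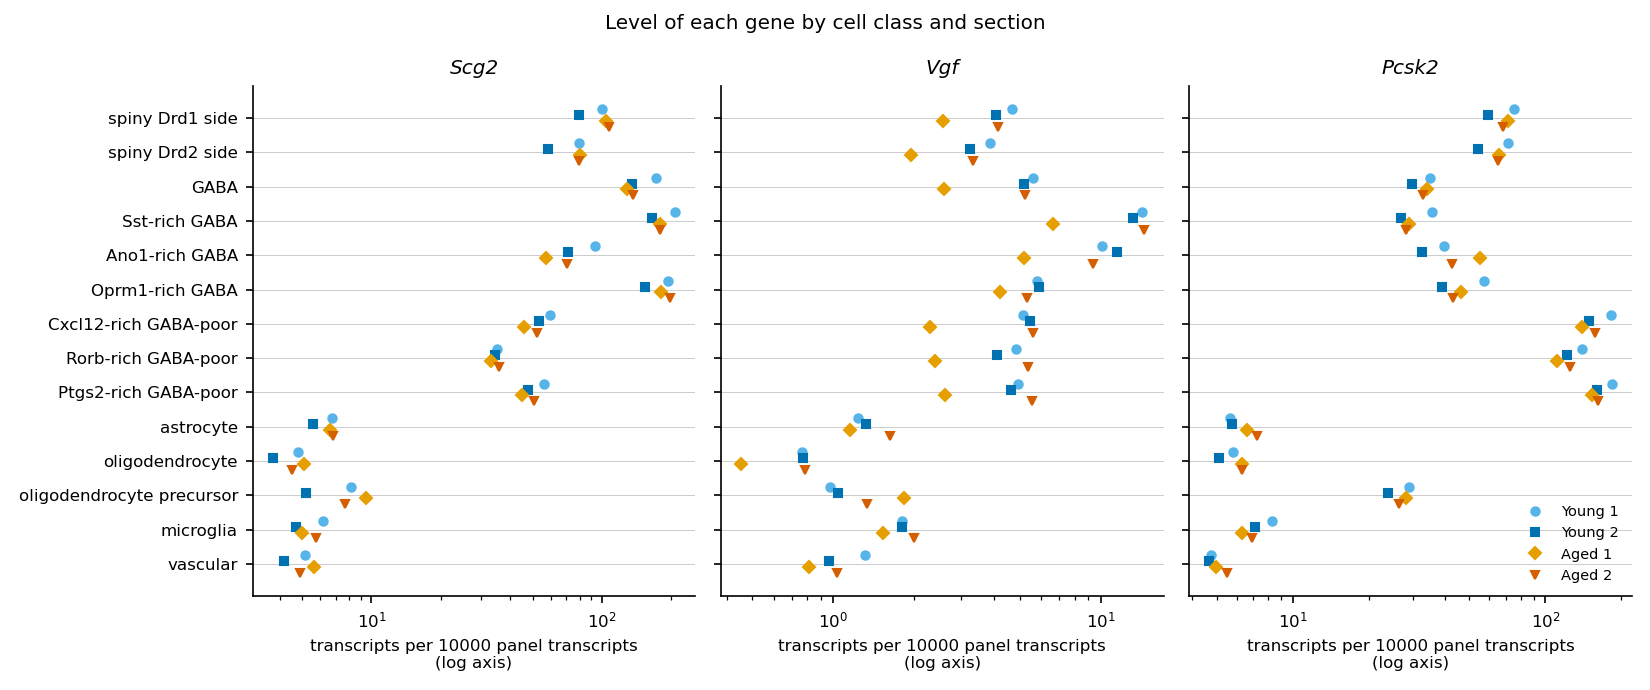
Level of Scg2, Vgf and Pcsk2 (transcripts per 10000 panel transcripts, log axis) in 9 neuron-like and 5 glial or vascular classes, with a point for each of the 4 sections. Scg2 is highest in the Sst-rich and Oprm1-rich GABA classes, Pcsk2 in the GABA-poor classes, and the Aged 1 points of Vgf lie to the left in the neuron-like classes.

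Counted over the 13 pairs of neighbouring classes in each order, 6 pairs differed in Scg2, 6 in Vgf and 7 in Pcsk2. Over all genes tested in the same pairs, 70.3%, 68.5% and 66.8% were called, so a called pair was no rarity on this panel.

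The share of cells with at least 1 transcript gave the same picture when cells were thinned to 100 transcripts. Cells with fewer than 100 were left out of the thinned shares. This removed more glial cells than GABA-poor cells, and only 557 of 1114 microglia of Aged 1 stayed. After thinning, 64.1% to 74.1% of Sst-rich GABA cells held Scg2, against 38.9% to 47.9% of spiny cells and 3.18% to 8.46% of cells in the glial and vascular classes. Pcsk2 was present in 68.9% to 78.2% of GABA-poor cells and 22.4% to 26.1% of GABA cells. Without thinning the spiny share with Scg2 was 72.5% to 83.7%. Vgf was found in 4.76% to 12.9% of Sst-rich GABA cells after thinning, the lowest value being that of Aged 1.

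The panel genes with the most similar profile over 14 classes, which share sections, were, for Scg2, Ndrg4, Nsg2 and Meg3 (each with a Pearson r of log2 levels of 0.94). For Pcsk2 they included Brinp1 (0.95) and Atp2b1 (0.94), and for Vgf they were Il1b (0.91), 6330403K07Rik (0.91) and Eno2 (0.90). Over the 9 neuron classes alone, in the same order, r was 0.28, 0.34 and 0.65 for Scg2, 0.90 and 0.79 for Pcsk2, and 0.59, 0.71 and 0.19 for Vgf.

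The comparison of dorsal with ventral striatum asked how the genes vary with position inside the spiny class, since the ventral striatum, with the nucleus accumbens, receives other inputs than the dorsal striatum. It used the spiny neuron-like cells of the first, coarser clustering inside the striatal outline, of which the spiny class described above made up 80.3% to 85.4% dorsally and 58.1% to 73.3% ventrally. Scg2 was higher ventrally in every section. In the dorsal part of the striatal outline it stood at 69.6 in Young 1, 55.3 in Young 2, 77.0 in Aged 1 and 78.7 in Aged 2. In the ventral part it stood at 129, 91.1, 140.2 and 137. All ventral values lay above all dorsal values.

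Fitted with section as a block, the log2 difference of Scg2, ventral minus dorsal, was 0.72 (SE 0.06, 95% interval 0.58 to 0.86, higher in 4 of 4 sections, edgeR adjusted p = 5.31e-05). Pcsk2 went the other way. It stood at 80.7, 62.4, 73.6 and 72.3 dorsally and at 67.0, 50.2, 63.4 and 59.6 ventrally, lower ventrally in each section. Its log2 difference was -0.37 (SE 0.06, 95% interval -0.51 to -0.23, edgeR adjusted p = 0.00186).

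Vgf did not differ detectably between the parts. It stood at 4.0, 3.95, 1.89 and 3.81 dorsally and 4.67, 3.45, 3.38 and 3.78 ventrally (log2 difference 0.09, SE 0.17, 95% interval -0.31 to 0.49, edgeR adjusted p = 0.720). Only Young 1 and Aged 1 had more Vgf ventrally.

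The same fit called 137 of the 383 genes (35.8%), 71 higher ventrally and 66 lower. Scaled by total panel transcripts only, 106 were higher and 48 lower, and the median over all genes moved from -0.04 to 0.07 on the log2 scale. Scg2 and Pcsk2 kept their directions and calls, with log2 differences of 0.82 and -0.27.

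**Figure D2:**
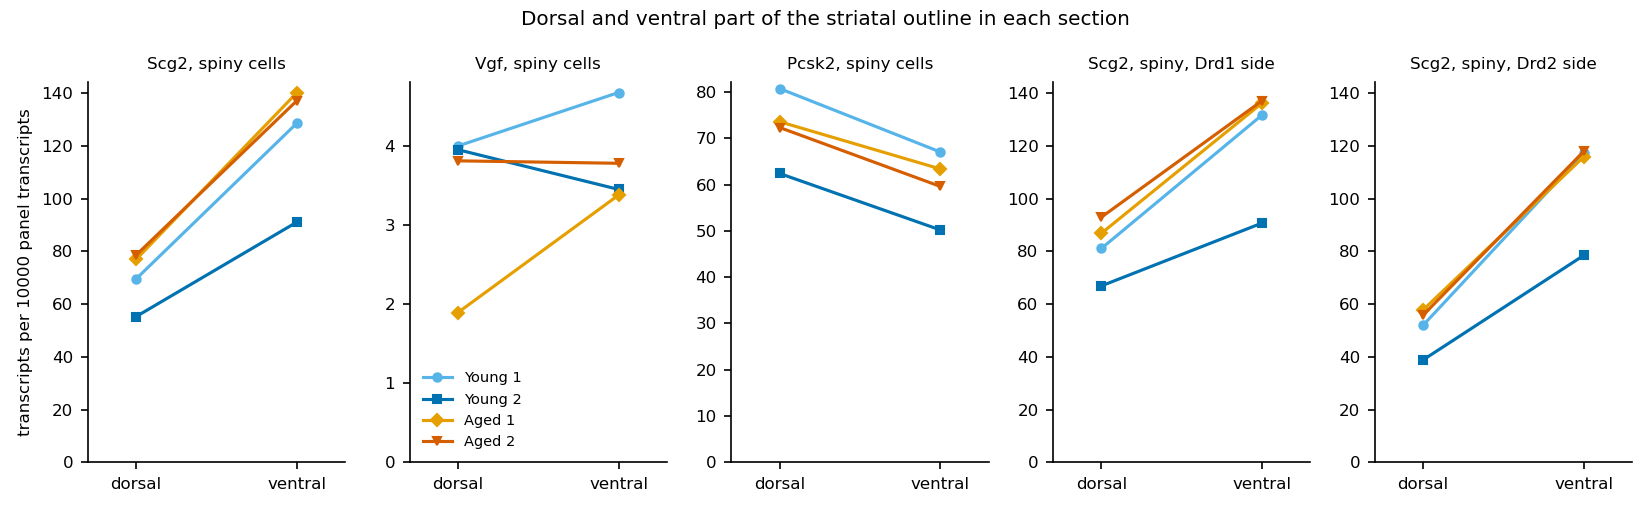
Level (transcripts per 10000 panel transcripts) in spiny neuron-like cells of the dorsal and ventral part of the striatal outline, with a line for each section. Scg2 rises from 55.3 to 78.7 dorsally to 91.1 to 140.2 ventrally, Pcsk2 falls, and on the Drd2 side Scg2 starts lower dorsally than on the Drd1 side.

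Other genes of the pathway were mixed in this comparison. Of the 3 peptide precursors Penk, Sst and Npy, 1 was called higher ventrally, Sst (log2 difference 0.49, edgeR adjusted p = 0.000973), and the median of the list was -0.08 against -0.04 over all genes. Of 5 genes of the vesicle release machinery, Syp, a synaptic vesicle membrane protein (0.95), and Rims2, an active zone protein (0.35), were higher, and Cacna2d3, a calcium channel subunit (-0.21), was lower, with a list median of -0.01. Of the 16 neuron-wide genes 5 were higher and 3 lower, with a median of 0.08. The largest differences were those of Nap1l5 (0.67), Meg3 (0.66), Gap43 (0.39) and Myt1l (-0.33).

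The composition of the spiny cells moved with position. Cells of the Oprm1-rich cluster, which had a high Scg2 level, made up 0.810% to 1.94% of spiny cells dorsally and 8.84% to 15.4% ventrally. Restricted to the spiny class of a second clustering, which leaves those cells out, the log2 difference of Scg2 was 0.63 (adjusted p = 1.29e-05). Summed markers of glia and vessels in these cells ranged from 123 to 141 dorsally and from 131 to 147 ventrally, and their part was not tested.

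The ventral excess of Scg2 was larger on the Drd2 side of the spiny class. On the Drd1 side Scg2 was 81.1, 66.9, 86.9 and 93.0 dorsally and 132, 90.8, 136 and 137 ventrally. On the Drd2 side it was 52.0, 38.9, 57.8 and 55.9 dorsally and 117, 78.5, 116 and 118 ventrally. With each part taken as a whole, the Drd2 side was therefore far below the Drd1 side dorsally and closer to it ventrally in each section.

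The log2 difference was 0.46 on the Drd1 side and 0.99 on the Drd2 side. The difference between these, tested in 1 model after the values had been seen, was 0.55 (SE 0.07, 95% interval 0.41 to 0.70, edgeR adjusted p = 0.000183), and the model called 10 of 383 genes (2.61%). Pcsk2, at -0.46 and -0.30, did not pass that test (difference 0.18, adjusted p = 0.124), nor did Vgf (difference 0.13, adjusted p = 0.927). Among the peptide precursors Penk, the enkephalin precursor of Drd2 neurons, went the opposite way (difference -0.68, adjusted p = 0.00749).

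Position was resolved further in rings of 250 µm around the anterior commissure, a fibre tract inside the ventral striatum that served as a landmark. Within 250 µm of it, Scg2 in spiny neuron-like cells reached 211 in Young 1, 156 in Young 2, 213 in Aged 1 and 220.2 in Aged 2. Between 500 and 750 µm it had fallen to 109, 92.0, 105 and 140.1. Between 1250 and 1500 µm it was 51.7, 48.3, 58.0 and 57.1, so each section was lower far from the commissure than near it.

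The descent was seen on both sides of the spiny class, and the Drd2 side reached a larger share of the Drd1 level near the commissure. On the Drd1 side the nearest ring had 212, 155, 217 and 214 and on the Drd2 side 199, 149.7, 173 and 198. In the ring from 1000 to 1250 µm the Drd1 side had 71.4, 60.1, 67.0 and 77.3 and the Drd2 side 43.8, 40.5, 42.2 and 45.0. These rings are given as a description, with no test.

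Pcsk2 in spiny cells ran the other way near the commissure, at 64.0, 40.6, 57.2 and 49.3 in the nearest ring and at 80.9, 63.2, 76.9 and 77.5 between 1000 and 1250 µm. Astrocytes of the same rings held much less Scg2, but they too had more of it in the nearest ring (19.8, 22.1, 21.8 and 19.5) than between 1000 and 1250 µm (6.25, 4.97, 7.0 and 5.91). The rings between and beyond did not fall evenly. Whether the astrocyte values are transcripts of neighbouring neurons was not tested.

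**Figure D3:**
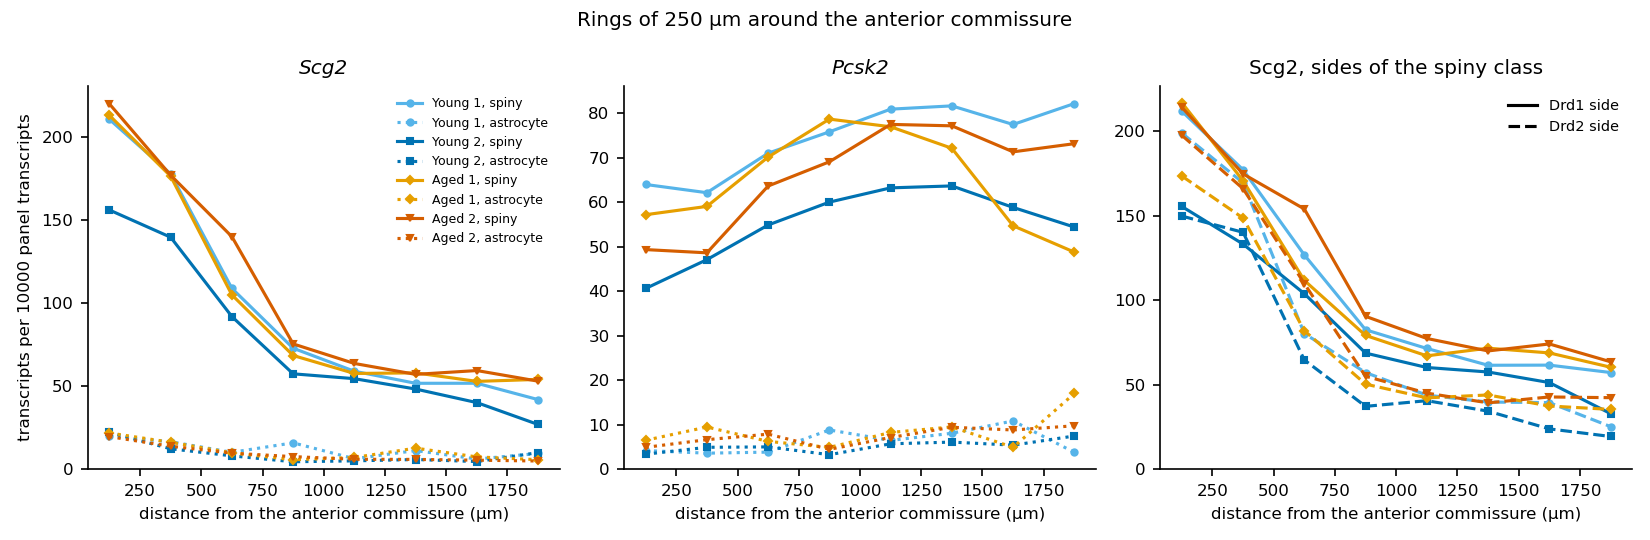
Level (transcripts per 10000 panel transcripts) in rings of 250 µm by distance from the anterior commissure (µm), with a line for each section. Scg2 in spiny neuron-like cells is 156 to 220.2 in the nearest ring and 48.3 to 58.0 between 1250 and 1500 µm, Pcsk2 is lower in the nearest ring than between 1000 and 1250 µm, and in the right panel the Drd2 side (dashed) lies below the Drd1 side away from it.

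Along the dorsal to ventral axis in segments of 500 µm, Scg2 in spiny cells was 62.1, 53.3, 70.1 and 68.0 in the second segment, peaked in the fourth segment in Aged 1 (142) and in the fifth in the other sections (150.2, 109 and 170 in Young 1, Young 2 and Aged 2), and fell again in the sixth. Pcsk2 was 81.5, 61.7, 74.2 and 75.3 in the second segment and 55.8, 42.4, 44.1 and 49.97 in the sixth. The ventral maximum of Scg2 thus did not lie at the ventral border, whereas Pcsk2 in these spiny cells was lowest in the sixth segment in each section. The Drd1 side had its lowest Pcsk2 in the sixth segment too. On the Drd2 side Pcsk2 was lower in the fifth than in the sixth segment in Young 1 (56.9 against 59.1), Young 2 (43.6 against 49.0) and Aged 2 (52.2 against 54.7). Only Aged 1 had less in the sixth there (56.1 against 48.9). For Scg2 the order of the sides turned in the fifth segment, where the Drd2 side was higher in each section. The Drd2 side had 169 against 140 in Young 1 and 118 against 97.5 in Young 2. It had 130.5 against 129.8 in Aged 1, close to equal, and 165 against 156 in Aged 2. In all other segments the Drd1 side had more Scg2 in each section. These segments were not put to a test.

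GABA neuron-like cells inside the striatal outline held more Scg2 than those outside it. Inside, the level was 258, 219.9, 227 and 244, from 374 to 519 cells a section. Outside, it was 159, 127, 114 and 127. The Sst-rich cells differed more widely, with 376, 326, 342 and 351 inside (61 to 118 cells a section) against 154, 122, 122 and 136 outside.

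Within the striatum the GABA cells, here with the Sst-rich cells included, did not share the ventral excess of the spiny cells. They had 311, 277, 305 and 306 dorsally and 248, 182, 197 and 210.2 ventrally, lower ventrally in 4 of 4 sections. This difference was not put to a test.

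In the GABA-poor cells dorsal to the commissures, a population that includes cortex, Pcsk2 was highest near the corpus callosum. In the bin nearest to it Pcsk2 stood at 199.7, 182, 169 and 189, and in the bin from 750 to 1000 µm at 172, 128, 115 and 135. Farther out Pcsk2 was higher again, at 198, 158, 135 and 157 between 1250 and 1500 µm. Scg2 had a low in the bin from 750 to 1000 µm in Young 2, Aged 1 and Aged 2 (36.2, 27.3 and 33.6). Vgf peaked between 500 and 1000 µm, at 6.68, 6.56, 3.01 and 7.06. The cluster make-up of these bins also changed with distance.

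**Figure D4:**
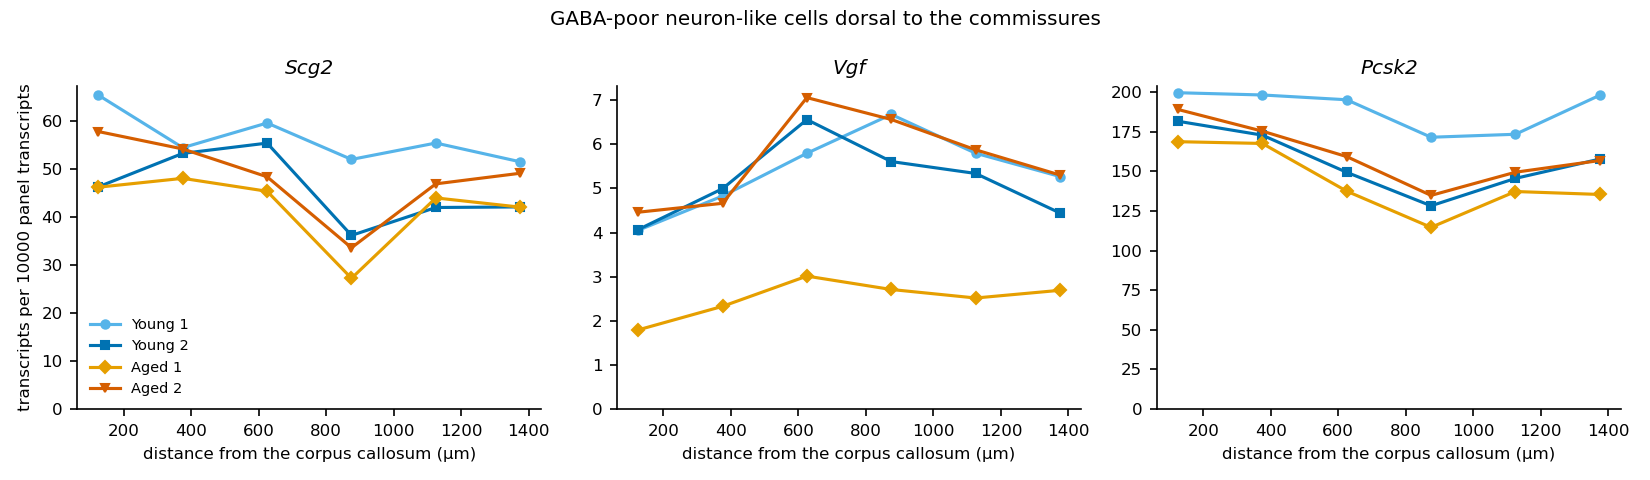
Level (transcripts per 10000 panel transcripts) in GABA-poor neuron-like cells by distance from the corpus callosum (µm), with a line for each section. Pcsk2 is 169 to 199.7 nearest the callosum, lower between 750 and 1000 µm and higher again between 1250 and 1500 µm. Vgf is highest between 500 and 1000 µm.

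The comparison of 18 with 2 months asked whether the level of these genes changes with age in a neuron class. Landmarks of the sections differed with age. The anterior commissures lay 2272 and 2268 µm apart at 2 months and 2604 and 2405 µm apart at 18 months. White matter taken as the corpus callosum covered 1.09 and 1.41 mm² at 2 months and 2.03 and 1.97 mm² at 18 months. The part of section position in the age values was not tested. No change of Scg2, Vgf or Pcsk2 passed the test in any of the neuron classes given here. The tests called 0 of 383 genes (0%) in the spiny, GABA, Ano1-rich, Cxcl12-rich, Rorb-rich, Ptgs2-rich and pooled GABA-poor classes, and 0 of 373 in the Oprm1-rich class. In the Sst-rich class 2 of 351 genes (0.57%) were called. At an unadjusted p under 0.05 edgeR gave 15 to 31 genes in these classes, DESeq2 called 0 to 3 genes after adjustment and limma called none.

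Scg2 in spiny cells stood at 92.2 in Young 1, 71.2 in Young 2, 93.9 in Aged 1 and 96.5 in Aged 2. Young 1 lay close to both aged sections and Young 2 below them. The log2 change was 0.27 (SE 0.15, 95% interval -0.07 to 0.61, edgeR adjusted p = 0.850). In GABA cells the change was -0.17 (SE 0.18, 95% interval -0.55 to 0.20) and in GABA-poor cells -0.21 (SE 0.18, 95% interval -0.58 to 0.17). The other classes ranged from -0.36 in Ano1-rich to 0.16 in Oprm1-rich GABA cells. The make-up of the pooled GABA-poor cells differed between sections. Rorb-rich cells, low in Scg2 and Pcsk2, were 846 of 9154 in Young 1 and 3285 of 12048 in Young 2. In Aged 1 they were 2469 of 9407 and in Aged 2 3099 of 11439. The part of this make-up in the pooled values of Scg2 and Pcsk2 was not tested.

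Pcsk2 changed by 0.09 (SE 0.15, 95% interval -0.25 to 0.44) in spiny cells, by 0.08 in GABA cells and by -0.19 in GABA-poor cells on the log2 scale. Its largest change was in Ano1-rich GABA cells, where the sections had 39.6 and 32.4 at 2 months and 55.1 and 42.7 at 18 months. The change of 0.45 there (SE 0.21, edgeR adjusted p = 0.751) did not pass the test.

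Vgf had negative values in every class, from -0.56 in Ano1-rich GABA cells to -0.19 in Rorb-rich cells. Aged 1 had a large part in most of them. In GABA cells, for example, Aged 2 (5.20) lay between Young 2 (5.16) and Young 1 (5.56), while Aged 1 stood at 2.61. Without Aged 1 the changes ran from -0.20 in Ano1-rich to 0.29 in Rorb-rich cells, and that in GABA-poor cells was 0.14.

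**Figure D5:**
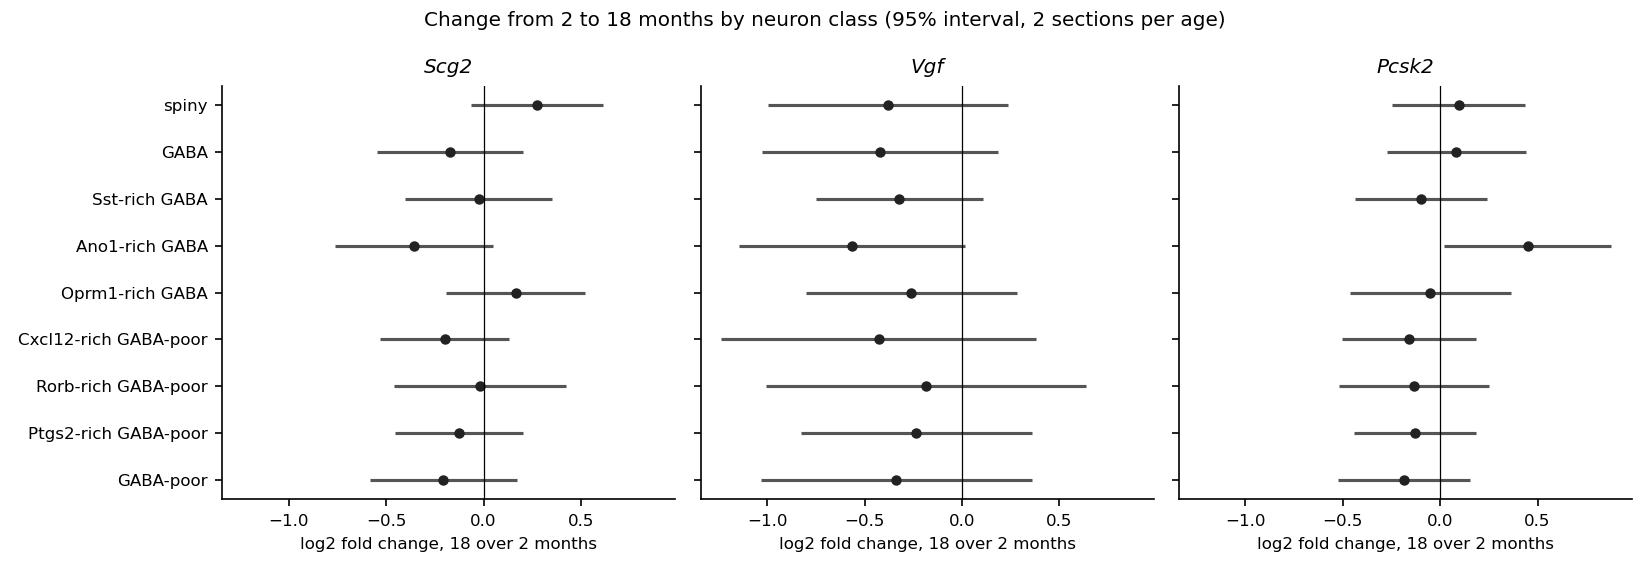
Log2 fold change from 2 to 18 months of Scg2, Vgf and Pcsk2 in 8 neuron classes and in the pooled GABA-poor cells, with 95% intervals from 2 sections per age. No change passed the adjusted test, and Vgf lies below 0 in all classes.

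Other granule genes gave little more with age. In the Sst-rich GABA cells Penk was lower at 18 months (log2 change -1.03, edgeR adjusted p = 0.000629), 1 of the 3 peptide precursors, against a median of -0.03 over all genes tested there. DESeq2 called 1 gene in these cells, a higher one, and limma 0, so neither made that call for Penk. No gene was called there when any 1 of the 4 sections was left out, and none was called lower with mixed cells left out by detected markers. None of the 5 vesicle release genes and none of the 16 neuron-wide genes was called in any class. In spiny cells the largest changes were those of Sst (-0.73) among the peptide precursors and Tubb3 (-0.41) among the neuron-wide genes, neither of which passed the test.

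Although no class passed on its own, the change of Scg2 differed between classes of the same sections. The ratio of the spiny to the GABA level was 0.538 in Young 1, 0.526 in Young 2, 0.732 in Aged 1 and 0.705 in Aged 2. Most of these GABA cells lay outside the striatal outline: 3504, 4103, 3226 and 4189 cells by section, against 519, 400, 444 and 374 inside. Inside it their Scg2 was 258, 219.9, 227 and 244, and outside it 159, 127, 114 and 127. The ratio was not tested with the GABA cells inside alone. Tested after these values had been seen, the age change in spiny cells exceeded that in GABA cells by 0.43 on the log2 scale (SE 0.10, 95% interval 0.24 to 0.63, edgeR adjusted p = 0.00192), in a model that called 5 of 383 genes (1.31%). The call was lost without Young 1 (adjusted p = 0.292), without Young 2 (0.361) and without Aged 1 (0.297), while the difference stayed between 0.41 and 0.45 in these fits.

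Against the GABA-poor cells the ratio was 1.63 in Young 1, 1.52 in Young 2, 2.21 in Aged 1 and 2.03 in Aged 2. That difference was of like size, 0.43 (SE 0.12), and did not pass the test (edgeR adjusted p = 0.288, 0% of genes called and 38 genes at an unadjusted p under 0.05). Astrocyte markers in the summed spiny cells were 52.0 and 60.5 at 2 months and 73.3 and 66.7 at 18 months, and in GABA cells 127, 128, 148 and 140.1; their part in the ratio was not tested.

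The ventral minus dorsal differences in spiny cells were not shown to change with age. Scg2 changed by 0.32 in the dorsal part (edgeR adjusted p = 0.522) and by 0.39 in the ventral part (adjusted p = 0.979), with 0% of genes called in each. The difference of the changes was 0.10 for Scg2 (SE 0.13, 95% interval -0.22 to 0.43), 0.44 for Vgf (SE 0.34) and 0.11 for Pcsk2 (SE 0.13), each with an edgeR adjusted p of 0.956. That model called 0% of genes, with 12 at an unadjusted p under 0.05, and DESeq2 called none. With 2 sections per age, an exact two-sided permutation test of 1 value cannot go below p = 0.333.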

How the data were processed

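The deposited files hold whole-number counts of panel transcripts per segmented cell. Per the study's methods, the authors imaged 10 µm sections, segmented cells and assigned spots with MERLIN v.0.1.6, and removed cells with fewer than 10 genes or under 50 µm³; the same limits were applied here to the counts as deposited. The study's methods call its replicates biological, but the labels tie no section to an animal. In age tests within a class p-values measure the spread between sections. With section as a block they measure the spread of differences within sections. In both, edgeR moderates the spread of each gene over all genes tested, so it is not that of the gene alone. The deposited volume of each cell, a signal column from the authors' segmentation, and its position were used as given. Cells were clustered without Scg2, Vgf and Pcsk2 (15 principal components, 20 neighbours, Louvain clustering at resolution 0.08 and, for neuron-like cells, 1), and mixed cells were left out; no doublet caller was run. Sst-rich cells held at least 200 Sst transcripts per 10000. The striatal outline took places where at least 40% of cells within 150 µm were spiny neuron-like. Counts were summed per section and class and tested with edgeR 4.0.16 (TMM, quasi-likelihood, Benjamini-Hochberg over all genes tested, threshold 0.05); tests between classes used total counts and section as a block. DESeq2 1.42.0 and limma 3.58.1 (log2 CPM plus 0.5) were alternatives, as were other scalings, filters, clusterings, units and leaving out each section. The fits were tested on simulated data. Named genes were the members, list genes past the threshold or the largest change, and the 3 most similar genes. The members and lists were chosen with earlier results of these data known. Some results, among them those of 1 cell class, are not reported here.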

Additional observations from a re-analysis of the deposited data

Results flagged for a closer look

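The age change of Scg2 was larger in spiny than in GABA neuron-like cells by 0.43 on the log2 scale in a test of the difference itself. All 4 sections entered, and the ratio of the levels was higher in both aged sections than in both young sections. Most of the GABA cells lay outside the striatal outline, and landmarks of the sections differed between the ages. The part of either in the ratio was not tested. The call was lost without Young 1 (edgeR adjusted p = 0.292), without Young 2 (0.361) and without Aged 1 (0.297), and kept without Aged 2 (0.0483), with a difference of 0.41 to 0.46.

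The ventral minus dorsal difference of Scg2 was larger on the Drd2 than on the Drd1 side by 0.55 on the log2 scale, also in a test of the difference. Leaving out each section kept this between 0.48 and 0.58, with the call kept each time. Both tests were chosen after the values had been seen.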

How the results depend on the processing

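Ventral Scg2 and dorsal Pcsk2 excesses in spiny cells kept direction and call under all 12 alternatives (log2 0.46 to 0.99 and -0.58 to -0.27). No age change of a member passed under any alternative, except Vgf in Cxcl12-rich cells without Aged 2 (-1.15, adjusted p = 0.00135), a fit that called 42 of 383 genes. Leaving out a section leaves 1 in its age group, assumed to vary like the others, and here that is Aged 1, the shallowest. Signs of small age changes moved. Per cubic micrometre of cell volume, an amount that follows section depth, the median over all genes was -0.54 in spiny, -0.60 in GABA and -0.37 in Oprm1-rich cells, and the changes that turned negative lay above it, as in the reported scaling, at -0.26 (Scg2) and -0.44 (Pcsk2) in spiny cells, -0.51 (Pcsk2) in GABA, and -0.19 (Scg2) in Oprm1-rich cells. Pcsk2 in GABA cells was -0.029 with mixed cells left out by detected markers, and in Oprm1-rich cells 0.023 with the finer clustering. The cause of these last changes of sign was not tested.

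Leaving out each section gave Scg2 changes of 0.16 to 0.40 in spiny, -0.34 to -0.038 in GABA, -0.13 to 0.095 in Sst-rich and -0.10 to 0.055 in Rorb-rich cells. Pcsk2 ranged from -0.019 to 0.22 in spiny, -0.038 to 0.16 in GABA, -0.23 to 0.067 in Sst-rich and -0.23 to 0.22 in Oprm1-rich cells. Vgf ranged from -0.95 to 0.061 in Sst-rich, -1.06 to 0.14 in GABA-poor, -1.15 to 0.064 in Cxcl12-rich, -0.92 to 0.29 in Rorb-rich and -0.84 to 0.19 in Ptgs2-rich cells, each highest value without Aged 1.

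Ventral minus dorsal Vgf was -0.040 in the spiny class of the second clustering, -0.091 on the Drd1 side only, and -0.11 to 0.23 when each section was left out. Its age difference ranged from -0.053 to 0.22 (Scg2), -0.092 to 0.97 (Vgf) and -0.040 to 0.24 (Pcsk2), all negative without Aged 1, and was -0.19 for Scg2 in the stricter outline (55%). The spiny minus GABA age difference ranged from 0.41 to 0.46 (Scg2), -0.053 to 0.22 (Vgf) and -0.066 to 0.069 (Pcsk2) over left-out sections, and was -0.0077 for Pcsk2 with the finer clustering.

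Neighbouring classes that differed in Pcsk2 numbered 5 to 7 over left-out sections. Genes called between ventral and dorsal numbered 85 (without Young 1) to 162 (without Aged 1), for its age difference 0 to 21 (without Aged 1), and for age in GABA-poor cells 0 to 3; the finer clustering gave 1 there. Without Aged 2, 42 (Cxcl12-rich), 21 (Rorb-rich) and 8 (Ptgs2-rich) genes were called with age. DESeq2 called 2 genes with age in GABA cells and 1 in GABA-poor cells. With the titles' numbers as a replicate block, edgeR called 0 genes in spiny, GABA and GABA-poor cells (Scg2 in spiny cells 0.28), 2 in Sst-rich and 1 in Rorb-rich cells. Same-numbered sections had only a weak tendency to deviate in opposite directions (r = -0.24 over 383 genes). The crossed replicate block, added after seeing the data, called 0, 1 and 0 genes in spiny, GABA and GABA-poor cells. It called 9 and 8 on the Drd1 and Drd2 sides, 8 in Rorb-rich, 3 in Cxcl12-rich and 2 in Sst-rich cells. No member was called under either block. Vgf is limited by depth, with 64 transcripts in Sst-rich cells of Aged 1.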
